A study of Mus musculus with 50 samples.

Results

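Lipopolysaccharide (LPS), a component of the bacterial outer membrane, lowered the microglial level of some genes and raised that of others, and the 299 genes described here were chosen from the lower side. A gene was a member when its mean level in control mice injected with saline was at least 10 CPM (the count of a gene divided by the total of the mouse, times 1000000) and its mean in control mice injected with LPS was at most 50% of that. Symbols that only number a predicted gene (Gm plus digits, or ending in Rik) were dropped, which removed 59 genes. The 299 members are 4.03% of the 7425 genes that reached 10 CPM with such symbols dropped, out of 53700 genes in the table. Because the values of the control mice with and without LPS chose the members, those values are given below as a description with no test. The tests rest on mice that the choice did not use.

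The libraries hold poly-A RNA of microglia, the resident macrophages of the brain, sorted from the hippocampus of male C57BL/6J mice as CD11b+ cells with intermediate CD45, with 1 library per mouse. Mice were raised under control (CTR) conditions or under early-life stress (ELS), in which dam and pups had limited bedding and nesting material from postnatal day (P)2 to P9. At P9, 12 CTR and 13 ELS pups were taken with no injection. At P200, adult mice received saline (PBS) or 1 mg/kg LPS in the abdomen 3 h before the brain was taken, giving 7 CTR-PBS, 7 CTR-LPS, 6 ELS-PBS and 5 ELS-LPS mice. Myelin was removed with Percoll from adult but not from P9 tissue, so age and this step cannot be told apart. Mouse labels have the form 1.1, read as nest and mouse within the nest. Each group holds mice of 4 or 5 nests, and p-values treat mice as independent. In such sorted samples, fewer cells of a type and less RNA per cell cannot be told apart.

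Microglia detect LPS mainly through the receptor TLR4, which switches on NF-kB and interferon signalling and, within hours, a large set of cytokine and chemokine genes. In the same hours the transcripts of some receptors, transcription regulators and signal dampers of resting microglia are known to go down. Neonatal microglia are still maturing and dividing, and adult microglia carry a settled program upheld by factors such as SALL1.

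Total counts ran from 5152838 to 42231258 per mouse. CTR-PBS mouse 1.1, with 12854 genes detected, and the P9-ELS mice 2 and 3 of nest 19, with 15731 and 12482, stood apart from the other 47 mice, which had at least 16000. Mouse 1.1 was the highest of the 7 CTR-PBS mice in 132 members (44.1%, against 31.4% of the 7425 genes), so results are also given without it. The summed level of 14 microglia markers was 85900 to 112000 CPM in every P200 mouse. A list of 39 tested genes that LPS is known to induce moved as the labels say: 35 passed the test upward in ELS mice, and the median log2 fold change was 4.07.

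As examples, not picked to represent all members, the 250 bases before the annotated start of 5 of them are printed in the GRCm39 mouse genome, 5′ to 3′ on the strand of the gene. Capitals mark the GC box CCGCCC or its reverse complement, a short motif bound by factors of the SP and KLF families. Rgs2 (chr1:143879900-143880149, minus strand) has the lowest level left after LPS in CTR mice. Arrdc3 (chr13:81031204-81031453, plus strand) is among the lowest in both rearing groups, while Hhex (chr19:37423008-37423257, plus strand) and Sall1 (chr8:89769533-89769782, minus strand) code for transcription factors. Zfp955a (chr17:33474120-33474369, minus strand) is a member with a zinc finger symbol and was not picked as typical of that family.
Rgs2: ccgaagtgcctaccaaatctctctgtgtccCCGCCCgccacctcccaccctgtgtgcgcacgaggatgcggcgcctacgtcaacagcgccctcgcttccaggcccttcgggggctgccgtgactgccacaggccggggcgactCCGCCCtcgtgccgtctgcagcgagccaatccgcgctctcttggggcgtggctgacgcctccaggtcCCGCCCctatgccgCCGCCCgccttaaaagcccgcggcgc
Arrdc3: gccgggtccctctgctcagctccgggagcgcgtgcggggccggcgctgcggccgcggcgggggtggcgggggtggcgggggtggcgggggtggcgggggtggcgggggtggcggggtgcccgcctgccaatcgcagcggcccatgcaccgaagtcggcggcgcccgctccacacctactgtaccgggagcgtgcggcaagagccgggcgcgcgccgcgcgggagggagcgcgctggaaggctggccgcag
Hhex: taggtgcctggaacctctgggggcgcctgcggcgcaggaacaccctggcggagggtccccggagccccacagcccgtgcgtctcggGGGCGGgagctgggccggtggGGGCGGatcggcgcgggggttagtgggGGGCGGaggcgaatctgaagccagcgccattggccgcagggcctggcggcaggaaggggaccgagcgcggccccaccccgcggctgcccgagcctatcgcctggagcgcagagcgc
Sall1: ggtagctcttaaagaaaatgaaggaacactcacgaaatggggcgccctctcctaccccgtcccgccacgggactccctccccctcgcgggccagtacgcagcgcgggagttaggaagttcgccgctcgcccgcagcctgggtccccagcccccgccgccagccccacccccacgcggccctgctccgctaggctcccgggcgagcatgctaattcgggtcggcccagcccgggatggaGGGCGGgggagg
Zfp955a: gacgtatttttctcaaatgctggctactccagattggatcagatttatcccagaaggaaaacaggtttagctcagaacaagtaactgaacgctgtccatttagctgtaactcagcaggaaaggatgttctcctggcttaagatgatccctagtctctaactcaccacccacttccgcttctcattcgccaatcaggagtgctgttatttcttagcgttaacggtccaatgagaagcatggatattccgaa
The first 4 sequences are rich in G and C, at 71.2% for Rgs2, 81.2% for Arrdc3, 76.4% for Hhex and 70.8% for Sall1, and the GC box occurs 4, 0, 3 and 1 times. All 4 lie above the median of the members, 56.0%, which was close to the 56.8% of the other genes at 10 CPM or more. The Zfp955a sequence has 44.0% G and C and no GC box. The window of its neighbour Zfp955b (chr17:33508268-33508517, plus strand) is identical at 250 of 250 bases. These upstream windows give no reads, and how similar the transcripts of the pair are was not tested.

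Over all members, the letters before the start were close to those of other expressed genes. The GC box was present in 47.5% of the members and in 50.6% of the other genes at 10 CPM or more, against 19.7% of all genes in the table. On either strand, the element TATAAA was in 6.02% of members and 6.72% of the others. The KLF-type element CACCC was in 159 of the 299 member windows and in 54.7% of the others, and the PU.1-type GAGGAA, which the longer form below contains, in 25.4% and 23.6%. The NF-kB site GGGACTTTC was found in 0 member windows and in 0.365% of the others, and its looser form GGGNNTTTC, which includes it, in 2.34% and 3.62%. The interferon-type element GAAANNGAA was in 4.35% and 7.02%. The SMAD-type element CAGACA was in 51 of the 299 member windows and in 13.7% of the others. The other 8 motifs searched were each in at most 7.02% of member windows. They were the SMAD palindrome GTCTAGAC (0.0% and 0.267%), the longer PU.1 form GAGGAAGT (3.68% and 2.36%), the ETS form CCGGAAGT (3.34% and 4.56%), the MEF2 form CTAAAAATA (0.0% and 0.309%), the E-box CACGTG (7.02% and 8.77%), the AP-1 form TGACTCA (2.34% and 2.88%), the NRF1 form GCGCATGCG (1.34% and 2.46%) and the YY1 form AAGATGGCG (1.34% and 1.14%). The last 500 bases of the transcript were read on the sense strand, with motifs added after the data were seen. Only genes with a 3′ untranslated region of 500 bases or more were searched, 253 members and 5508 of the others. Among these, the AU-rich letters TATTTAT occurred in 11.5% of members and 13.0% of the others. The letters ATTTA were in 63.2% and 56.7%, and the Pumilio-type TGTANATA in 17.8% and 12.4%. These are matches of letters and not measured sites.

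In gene structure, members had fewer exons than other expressed genes, a comparison that was not tested. Of the 299, 293 (98.0%) are annotated as protein coding. The main transcript of a coding member had a median of 5 exons, against 9 for the other 7076 coding genes at 10 CPM or more. The median was 4 in the 55 members with a zinc finger symbol, a family described below, and 7 in the other coding members. It had at most 3 exons in 24.6% of members and in 10.1% of the others, and 1 exon in 4.1% and 1.16%. The median 3′ untranslated region was 1787 bp against 1426 bp, and the median gene span was 24282 bp against 26981 bp. Lying within 200000 bp of another member, 73 members form 32 groups, and the largest is a run of 7 zinc finger genes at chr17:33034423-33613647 (Zfp799, Zfp870, Zfp763, Zfp563, Zfp955a, Zfp955b and Zfp101). Because clustered relatives are similar in sequence, such neighbours are not independent observations.

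Together the members took up about 2% of the RNA of unchallenged adult microglia and less than 1% after LPS. In CTR-PBS mice, which chose them, they held 1.82% to 2.06% of all counts, with a mean of 1.95% ± 0.0881 (SD, n = 7). In CTR-LPS mice they held 0.591% to 0.943%, with a mean of 0.711% ± 0.119 (SD, n = 7). Mouse 5.3 was the highest of the latter, and the other 6 lay at or below 0.736%. The ELS mice, which the choice did not use, held 1.79% to 1.95% after PBS (1.90% ± 0.0576, SD, n = 6). After LPS the 5 ELS mice held 0.503%, 0.601%, 0.643%, 0.820% and 0.841% (mean 0.682% ± 0.145, SD). Every ELS-LPS mouse was below every ELS-PBS mouse, and the ranges of ELS-LPS and CTR-LPS mice overlapped. The ELS-LPS mice with the most counts in the members had the least in the induced genes: the 40-gene induced list summed to 18400 and 17100 CPM in mouse 4.2 and the mouse of nest 11, which held 0.841% and 0.820%, and to 42100 CPM in the mouse of nest 20, which held 0.503%. This is a description over 5 mice whose counts share a total.

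**Figure D1:**
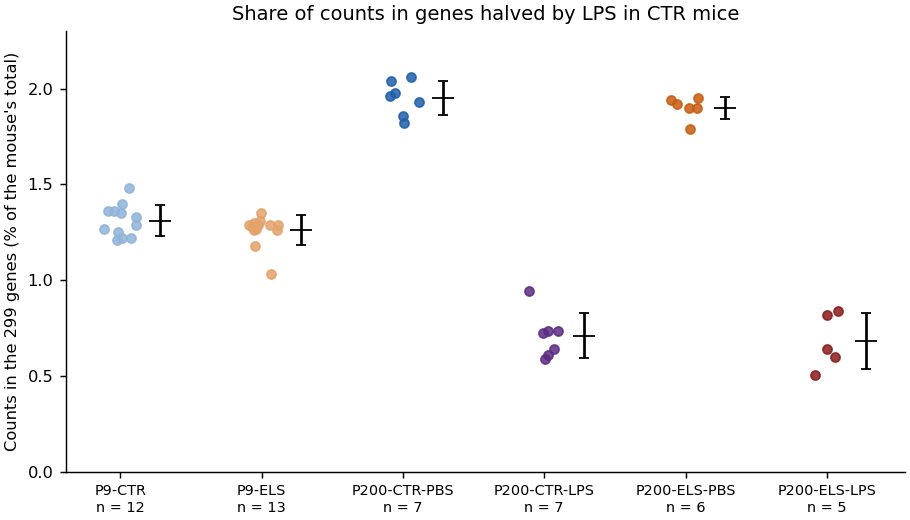
Share of each mouse's counts that fell in the 299 genes (percent, vertical axis from 0) by group; points are mice, and the bar beside them is the mean with SD. CTR-PBS and ELS-PBS mice lie between 1.79% and 2.06%, P9 mice between 1.03% and 1.48%, and all LPS mice at or below 0.943%; the CTR-PBS and CTR-LPS groups were used to choose the genes.

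Most members were of moderate level. In CTR-PBS mice 118 had a mean of 10 to 20 CPM, 96 of 20 to 50 and 42 of 50 to 100, while 43 reached 100 CPM or more, with Sgk1 highest at 882. Compared per kilobase of exon (RPKM, on the CTR-PBS means), Gpr183 was at 185, Sgk1 at 147, Gna15 at 126 and Rgs2 at 116. After LPS a median of 41.3% of the CTR-PBS mean was left (range 10.0% to 50.0%), against 90.2% over the 7425 genes, and 43 members kept at most 25%. Just inside the limit were Dck at 49.75%, Dstyk at 49.76%, Mmd at 49.94% and Cyren at 49.95%, and just outside were Ctns and Invs at 50.02%, Tec at 50.04% and Akirin2 at 50.05%. On the level side, Cmc2 entered at a mean of 10.04 CPM and Zfp72 at 10.06, whereas Meak7 at 9.909 and Nat2 at 9.845 did not.

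The ELS mice gave a test of the change after LPS in animals that had no part in choosing the members. A gene was called when edgeR's quasi-likelihood test gave an adjusted p under 0.05, over 16696 tested genes, and an absolute log2 fold change above 1. By that criterion 158 of the 299 members (52.8%) fell after LPS and none rose, against 3.17% of all tested genes and 3.14% of the 7425 genes at 10 CPM or more that were called lower. All 299 passed the filter on low counts, as their level in CTR-PBS mice required. The median log2 fold change was -1.12 over the members, 0.01 over the 7425 genes and -0.04 over all tested genes, and single members ran from -3.70 to 0.20, with 296 below 0. Every ELS-LPS mouse lay below every ELS-PBS mouse in 204 members (68.2%), compared with 7.76% of all tested genes and 11.0% of the 7425. With total counts in place of TMM factors, the median of all tested genes moved from -0.04 to -0.25 and the share of downward calls among all calls from 40.4% to 58.4%, while the members stayed 1.08 below the median of all genes, against 1.09 with TMM.

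The level left spread more widely in ELS mice than in CTR mice, whose values the rule capped at 50%. That difference in spread follows from the choice and is no result about ELS. A median of 39.6% of the ELS-PBS mean was left after LPS, against 86.6% over the 7425 genes. At most 25% was left in 49 members, at most 50% in 226, between 50% and 75% in 64 and more than 75% in 9. More was left in ELS than in CTR mice in 160 members and less in 139, a split that was not tested because the members were chosen on the CTR ratio. When the same rule was applied to ELS mice, 568 genes passed, of which 209 are members (69.9% of the CTR list and 36.8% of the ELS list). The other 359 kept a median of 44.1% in ELS mice and 65.2% in CTR mice, and 338 of them had a CTR-LPS mean below the CTR-PBS mean. They were chosen for a low ELS ratio, so the gap between these medians follows largely from the choice and is no result about ELS. The difference in size between the CTR and ELS lists was not tested. Without LPS, the ELS-PBS to CTR-PBS ratio had a median of 0.943 over the members and 1.00 over the 7425 genes, again with no test because CTR-PBS levels entered the rule.

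**Figure D2:**
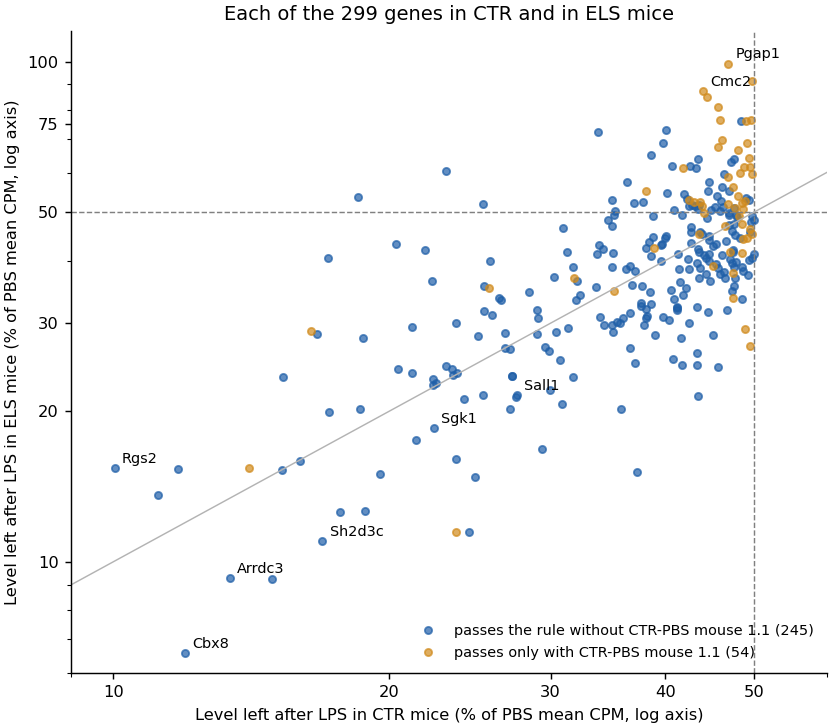
Level left after LPS in each of the 299 genes, as a percent of the mean CPM after PBS, in CTR mice (horizontal, log axis) and ELS mice (vertical, log axis), with dashed lines at 50% and a grey line where both are equal. Blue genes (245) pass the rule without CTR-PBS mouse 1.1 and orange ones (54) need it; CTR values were used to choose the genes, and in ELS 226 of the 299 lie at or below 50%.

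Membership of 54 genes rested on CTR-PBS mouse 1.1, which was the highest of its group in 52 of them. Of the 245 genes that passed without it, 149 (60.8%) were called lower in ELS mice, and their median log2 fold change was -1.19. Of the 54, 9 (16.7%) were, with a median of -0.73. Of the 9 members with more than 75% left in ELS mice, 8 belong to the 54. They include the 6 with the most left, Pgap1, an enzyme that remodels lipid anchors of proteins (99.1% left), Mmab of vitamin B12 metabolism (91.5%), Cmc2 (87.2%), the cilium transport gene Ift88 (84.9%), Mterf4 of mitochondrial ribosomes (81.2%) and the translation repressor Eif4ebp2 (76.4%). Applied without mouse 1.1, the rule again gives 299 genes, 245 of them shared, and 164 (54.8%) of that list were called lower in ELS mice. With the 3 mice with few detected genes left out of the fit, 181 of the 299 members were called lower.

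The member with the least left in CTR mice was Rgs2, a regulator that shortens signals from G protein-coupled receptors. Its level ran from 350 to 604 CPM (median 397) in CTR-PBS mice, with mouse 1.1 highest, and from 26.3 to 62 (median 39.4) in CTR-LPS mice. ELS-PBS mice had 295 to 434 CPM (median 321) and the ELS-LPS mice 13.8, 18.9, 37.2, 65.9 and 126. The ELS groups did not overlap, and the fitted log2 fold change in ELS was -2.48 (SE 0.28, edgeR adjusted p = 1.11e-09). Arrdc3, an arrestin-like adaptor that helps remove receptors from the cell surface, had 84.2 to 128 CPM in CTR-PBS and 7.33 to 25.4 in CTR-LPS mice. In ELS it had 68.2 to 149 CPM after PBS (median 111) and 3.59, 6.75, 9.65, 15.4 and 16.3 after LPS, a log2 fold change of -3.21 (SE 0.35, edgeR adjusted p = 3.59e-10). Cbx8, a subunit of a Polycomb complex that silences genes, had the largest fall in ELS mice, from 8.27 to 19.5 CPM to between 0.428 and 1.59 (log2 fold change -3.70, SE 0.38, edgeR adjusted p = 9.25e-11). None of these 3 genes had overlapping groups in either rearing condition.

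G protein-coupled receptors were represented by 6 of the 30 listed receptors at 10 CPM or more, and 5 of the 6 were called lower in ELS mice. In the whole list of 41 tested receptors 6 were called lower and 10 higher, with a median log2 fold change of -0.29. Lpar5, a receptor for lysophosphatidic acid, kept 18.6% in CTR mice, and passed in ELS from a median of 58.3 CPM to between 3.73 and 18.7 (log2 fold change -2.10, SE 0.30). S1pr1, a receptor for sphingosine 1-phosphate, kept 34.2% and 42.3%, and passed with -1.02 in ELS. The orphan receptors Gpr160 and Gpr157 passed with -1.18 and -1.55. Gpr183, which senses oxysterols, had 476 to 634 CPM in ELS-PBS and 206, 256, 281, 319 and 353 in ELS-LPS mice. Its groups were apart, but its log2 fold change of -0.77 (edgeR adjusted p = 1.04e-06) was short of the size needed for a call.

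Signal relays further inside the cell were also present. Sgk1, a kinase under the control of glucocorticoids and PI3-kinase signals, had 749 to 1010 CPM in CTR-PBS and 105 to 417 in CTR-LPS mice. In ELS it had 755 to 1180 CPM after PBS (median 966) and 126, 129, 181, 215 and 248 after LPS, with 18.5% left (log2 fold change -2.22, SE 0.22, edgeR adjusted p = 1.26e-11). Mtus1, which codes for microtubule-associated proteins, fell in ELS from a median of 557 CPM to between 153 and 257 (log2 fold change -1.39). Gna15, the alpha subunit of a G protein that couples many receptors to phospholipase C, kept 47.8% in CTR and 49.3% in ELS mice, and its log2 fold change of -0.81 was not called. Sh2d3c, an adaptor of integrin and receptor kinase signalling, kept 16.9% and 11.0% (log2 fold change in ELS -2.96). All 5 members among 65 listed regulators of small GTPases were called lower in ELS mice, namely Arhgap5, Fgd4, Arhgap17, Fgd3 and Arhgef10l, with -1.08, -1.41, -1.20, -1.14 and -1.38. Across the 129 tested genes of that list, 10 were called lower and 2 higher (median -0.28). The inward rectifier potassium channel gene Kcnj2 kept 13.6% in ELS mice, from 15.5 to 26.7 CPM in ELS-PBS to 1.24, 1.44, 1.86, 2.08 and 6.22 in ELS-LPS mice. With Ano7, of the anoctamin family, it was 1 of 2 members among 35 ion channel genes, and both were called. Across the 137 tested ion channel genes the same 2 were called lower and 9 higher, with a median of 0.0.

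**Figure D3:**
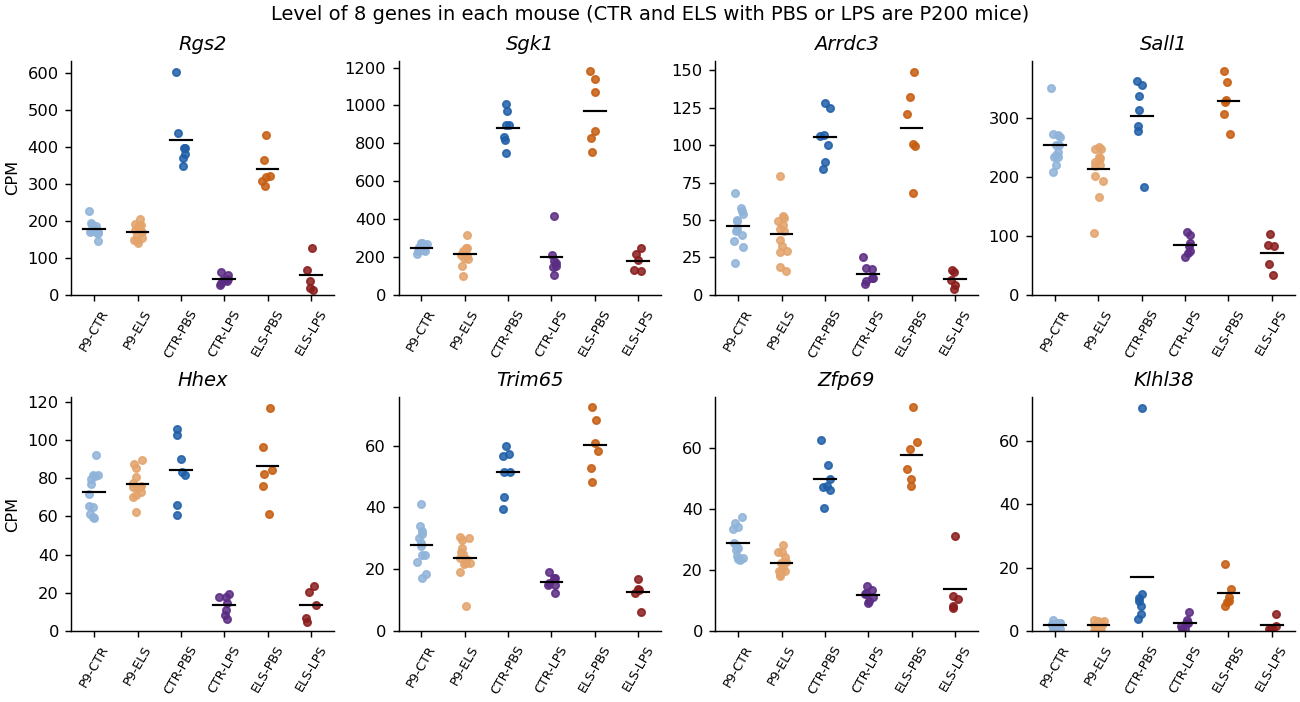
Level of 8 genes (CPM, vertical axes from 0) in each mouse of the 6 groups; points are mice and lines are group means, and the panels differ in scale. In Rgs2, Sgk1, Arrdc3, Sall1, Hhex and Trim65 every LPS mouse is below every PBS mouse, and in Klhl38 CTR-PBS mouse 1.1 is at 70.4 CPM while the other 6 are at 3.62 to 11.6; CTR values were used to choose the genes.

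Transcription factors of myeloid cells and microglia made up 6 of the members, out of 48 listed at 10 CPM or more, and 5 were called lower in ELS mice. Across the 60 tested genes of the list 6 were called lower and 13 higher, with a median of -0.04. Sall1, which upholds microglial identity, had 184 to 363 CPM in CTR-PBS and 64.4 to 106 in CTR-LPS mice. In ELS it had 273 to 380 CPM after PBS (median 330) and 32.8, 52.3, 82.2, 85 and 103 after LPS, with 21.5% left (log2 fold change -2.01, SE 0.18, edgeR adjusted p = 1.80e-12). Hhex, a homeobox factor, kept 16.0% in CTR and 15.9% in ELS mice (log2 fold change in ELS -2.45, SE 0.26). Maf, a leucine zipper factor of mature macrophages, kept 25.4% in ELS mice, with -1.76, and no ELS-LPS mouse reached the ELS-PBS range. Fli1, an ETS factor, fell from 354 to 543 CPM to between 108 and 237 in ELS mice (log2 fold change -1.17). Tfeb, which drives lysosome genes, had -1.0 and was not called (edgeR adjusted p = 0.153).

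Listed genes of the resting microglial program were members at about the same rate as all genes at 10 CPM or more. Of 52 listed homeostatic microglia genes, all of which were at 10 CPM or more, 2 are members, Sall1 and Arhgap5. That is 3.85%, against 4.03% of the 7425 genes. Of all 52, 4 were called lower and 2 higher in ELS mice, with a median of -0.04. Of 34 listed inhibitory and pattern recognition receptors 2 are members, and across the 40 tested genes of the list 1 was called lower and 9 higher, with a median of 0.25. Tlr4, the receptor for LPS itself, had 265 to 468 CPM in ELS-PBS and 49.3, 94.2, 128, 133 and 198 in ELS-LPS mice, and passed (log2 fold change -1.32, SE 0.27, edgeR adjusted p = 0.00026). Cd180, a TLR4 relative, kept 47.3% in CTR and 45.9% in ELS mice, but its log2 fold change of -0.91 in ELS was short of the size for a call. No member came from the lists of TGF-beta and BMP signalling (26 genes at 10 CPM or more), solute carriers (140), phosphoinositide signalling (31), notch, wnt and hippo signalling (20) or the circadian clock (11). At a share of 4.03%, a list of 11 to 31 genes would hold few members, so these counts are not read as a result. None of the lists was tested.

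The largest family among the members was that of genes with a zinc finger symbol, most of which code for DNA-binding proteins. They numbered 55 of the 299 (18.4%), against 237 (3.19%) of the 7425 genes at 10 CPM or more. All had a mean at or below 60.2 CPM in CTR-PBS mice, and 56 of the 299 genes chosen without mouse 1.1 have such a symbol. In ELS mice 33 of the 55 were called lower and 48 kept at most 50%, with a median of 34.6% left and a median log2 fold change of -1.31. Zfp69 fell from 47.3 to 73.2 CPM after PBS to 7.31, 8.25, 10.3, 11.5 and 31 after LPS in ELS mice (log2 fold change -1.84, SE 0.23, edgeR adjusted p = 1.11e-08). Zfp60 passed with -1.89, Zfp113 with -1.84 and Zfp658 with -1.57, while Zfp709, the one with the highest CTR-PBS mean, had -0.68 and was not called. Zfp36l2, in the list by its symbol, codes for an RNA-binding protein that speeds the decay of AU-rich transcripts, and passed with -2.09 (SE 0.29). Zkscan4 kept 11.8% in CTR and 15.3% in ELS mice, Zfp791 kept 15.3% and 23.4%, and Zkscan14 kept 16.7% and 28.5%.

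The zinc finger symbols that are no members had lower values after LPS as well. Of all 415 tested, 48 (11.6%) were called lower and 13 higher in ELS mice, and their median log2 fold change was -0.48. Of the 360 that are no members, 15 (4.17%) were called lower and 13 higher. Their median was -0.38, and 71.7% had a value below 0. Over the 16281 tested genes without such a symbol, 482 (2.96%) were called lower and 770 higher, the median was -0.02 and 51.4% lay below 0. With total counts in place of TMM factors the 3 medians of all symbols, of those that are no members and of all tested genes were -0.69, -0.58 and -0.25. In the 7-gene run on chromosome 17, Zfp763 kept 16.8% in ELS mice, Zfp563 35.4% and Zfp870 36.9%, while Zfp799, Zfp955a and Zfp955b kept 51.5% to 52.3%. These 7 were picked for their position after their values were seen. How alike the transcripts of paired symbols such as Zfp955a and Zfp955b, Zfp874a and Zfp874b or Zfp963 and Zfp964 are was not tested, and since the study counted unique reads, reads that match both genes of a pair would be missing from both.

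**Figure D4:**
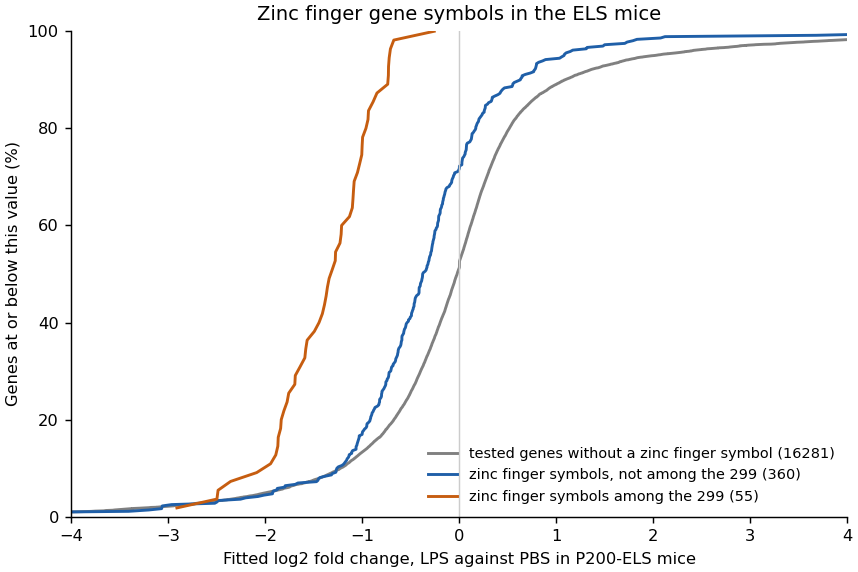
Cumulative share of genes (percent, vertical axis) at or below each fitted log2 fold change of LPS against PBS in ELS mice (horizontal axis, drawn from -4 to 4), for zinc finger symbols among the 299 genes, other zinc finger symbols and all other tested genes. The 360 symbols that are no members have a median of -0.38 against -0.02 for the 16281 other genes; the 55 members were chosen on CTR mice.

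A list of ubiquitin ligases and their adaptors, matched by symbol and not checked for function, supplied 12 of 200 genes. Of the 12, which include Usp20 and Trim14, 9 were called lower in ELS mice. Across the 339 tested genes of the list 17 were called lower and 14 higher (median -0.17). Trim65 fell from 48.1 to 72.4 CPM in ELS-PBS to 6.18, 12.4, 13.1, 13.5 and 16.9 in ELS-LPS mice (log2 fold change -2.06, SE 0.21, edgeR adjusted p = 6.86e-11). Rnf145, Rnf144b, Asb2, Fbxw4 and Trim36 passed with -1.43, -1.59, -1.52, -1.35 and -1.22. Of 39 autophagy genes 3 are members, and across 52 tested genes of that list 1 was called lower and 1 higher (median -0.23). Sesn1, which restrains mTORC1, fell from 218 to 306 CPM to between 46.8 and 117 in ELS mice (-1.53), while Atg14 and Tfeb were not called. Atm, a kinase of the DNA damage response, passed with -1.70, and Palb2, a partner of BRCA2, had -0.90, both out of 51 tested genes of double-strand break repair with 3 called lower and 1 higher (median -0.02). Tet1, which oxidizes methylated cytosine, passed with -1.90, and the methyltransferase gene Prmt9 had -0.24 (edgeR adjusted p = 0.818); of 121 tested genes of histone and DNA modifying enzymes 5 were called lower and 4 higher (median -0.19). B4galt4, Hs2st1 and Ndst2 are the members among 18 heparan and chondroitin sulphate genes (0 of 36 tested called lower and 3 higher, median -0.23), and none of the 3 was called, with -1.0, -0.33 and -0.72. The first genes of that list were taken from the study's own list on these samples and are no independent evidence. Abhd6, a monoacylglycerol hydrolase, was the member among 27 lipid handling genes (0 of 39 tested called lower and 3 higher, median -0.08) and had -0.66.

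Markers of other cell types are given beside this change. In ELS mice the summed level of 9 monocyte markers was 177 to 275 CPM after PBS and 376 to 588 after LPS, with 2 and 0 of them at 0 in every mouse. That of 10 border-associated macrophage markers was 138 to 293 and 82.9 to 135, with 1 and 3 at 0. Neutrophil markers (11 genes) summed to 262 to 480 and 263 to 394 CPM, with 8 and 3 at 0. For the other cell types the PBS and LPS ranges overlapped, with 8.02 to 16.5 CPM after PBS and a median of 13.6 after LPS for neurons (11 genes), 321 to 457 and 364 to 510 for astrocytes (10), 111 to 182 and 109 to 172 for the oligodendrocyte lineage (12), 30.6 to 74.4 and 38.7 to 86.9 for endothelial cells (10), and 39.8 to 58.7 and 23.5 to 100 for lymphocytes (12). The 14 microglia markers summed to 102000 to 110000 and 89700 to 112000 CPM. No member is on a marker list other than Sall1 on that of microglia. The part of other cells in the result was not tested.

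At P9 most members were already expressed, at a lower level than in adults. In P9-ELS mice 232 members and in P9-CTR mice 238 reached a mean of 10 CPM, and together they held 1.03% to 1.35% of counts in P9-ELS (1.26% ± 0.0794, SD, n = 13) and 1.21% to 1.48% in P9-CTR mice (1.31% ± 0.083, SD, n = 12). The P9-ELS mice 2 and 3 of nest 19, at 1.03% and 1.18%, were the lowest. Between P9-ELS and P200-ELS-PBS mice, neither of which chose the members, 62 members (20.7%) were called higher at P200 by edgeR's quasi-likelihood test, against 8.68% of all tested genes and 7.64% of the 7425. In the other direction 7 members (2.34%) were called lower at P200, against 17.5% of all tested genes and 7.74% of the 7425. The median log2 fold change of P200 over P9 was 0.50 over the members, 0.06 over the 7425 genes and -0.01 over all tested genes, and 239 members had the higher mean at P200. Without the 3 mice with fewer than 16000 detected genes, 57 and 7 members were called. In CTR mice the median was 0.66, a value that uses the CTR-PBS mice of the rule.

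Markers of other cells differed in both directions between these ages, and their part in the difference was not tested. Neuron markers (11 genes) summed to 70.0 to 217 CPM in P9-ELS and 8.02 to 16.5 in P200-ELS-PBS mice, with 0 genes at 0 throughout in either group. Border-associated macrophage markers summed to 698 to 1180 CPM in P9-ELS mice, above the 138 to 293 of P200-ELS-PBS mice, with 0 and 1 of 10 at 0. Lymphocyte markers (12 genes) summed to 117 to 359 and 39.8 to 58.7 CPM, with 7 and 5 at 0. Other lists were lower at P9 or overlapped between the ages. Neutrophil markers (11 genes) summed to 50.8 to 307 CPM in P9-ELS and 262 to 480 in P200-ELS-PBS mice, with 5 and 8 at 0, and monocyte markers (9 genes) to 138 to 217 and 177 to 275, with 3 and 2 at 0. Astrocyte markers (10 genes) summed to 125 to 373 and 321 to 457 CPM, with 0 at 0 in either group, and endothelial markers (10 genes) to 1.49 to 54.6 and 30.6 to 74.4, with 0 and 5 at 0. Oligodendrocyte lineage markers (12 genes) summed to 60 to 215 and 111 to 182 CPM, with 0 at 0. The 14 microglia markers summed to 69500 to 78400 and 102000 to 110000 CPM.

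Members that rose strongly toward adulthood differed in their response to LPS. Duoxa1, a maturation factor of the hydrogen peroxide producing dual oxidase, was at or below 0.716 CPM in all P9-ELS mice, the only member with a P9-ELS mean under 1 CPM, and at 8.2 to 15.5 in P200-ELS-PBS mice (log2 fold change 6.36, SE 0.60, edgeR adjusted p = 1.86e-12). Its log2 fold change after LPS in ELS was -0.49 and not called. Thrsp, linked to fatty acid synthesis, rose from 2.91 to 12.7 CPM at P9 to 81.3 to 137 at P200 (log2 fold change 4.05, SE 0.26), and its value after LPS in ELS, -0.81, was not called. Ebf3, a helix-loop-helix factor, rose by 3.71 and Klhl38, a Kelch adaptor, by 2.77 on the log2 scale. Rab3ip, an activator of RAB8, rose by 2.54. The last 3 were all called lower after LPS in ELS mice, though Klhl38 and Rab3ip are members only through CTR-PBS mouse 1.1. Sgk1 and Tlr4 rose with age by 2.21 and 1.02, whereas Hhex (0.17) and Cbx8 (-0.06), both called lower after LPS, were not called with age. Rgs2, at 0.99, was just short of the size for a call.

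The 7 members higher at P9 are Atad2, a chromatin ATPase (log2 fold change of P200 over P9 -2.44), H1f4, a linker histone (-2.37), Skp2, which marks cell cycle inhibitors for degradation (-2.17), Plin2, which coats lipid droplets (-2.06), Cdt1, which licenses DNA replication (-1.56), Cmc2 of cytochrome oxidase assembly (-1.52) and Dck, a nucleoside kinase (-1.07). Atad2 had 43.5 to 110 CPM in P9-ELS mice, 7.2 to 28.9 in P200-ELS-PBS and 3.54 to 4.09 in ELS-LPS mice, and was called lower after LPS too (-1.80). Plin2 had 187 to 295 CPM in P9-ELS and 43.2 to 70 in P200-ELS-PBS mice. In CTR-PBS mouse 1.1 it was at 0.901 CPM while the other 6 were at 52.9 to 76.9. Many histone transcripts lack a poly-A tail and these libraries hold poly-A RNA, so the counts of H1f4 are uncertain.

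**Figure D5:**
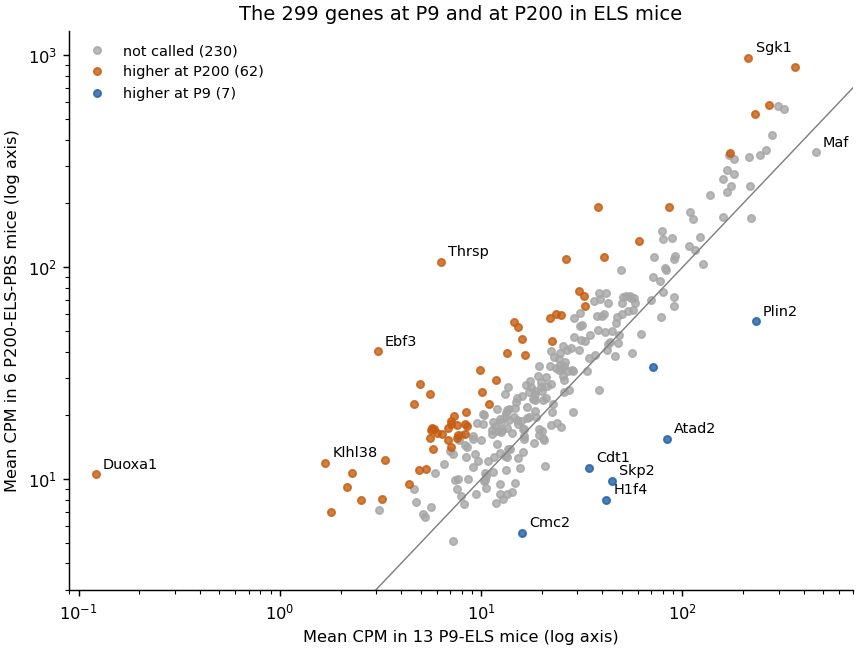
Mean CPM of each of the 299 genes in 13 P9-ELS mice (horizontal, log axis) and 6 P200-ELS-PBS mice (vertical, log axis), with a line where both are equal. Orange genes (62) were called higher at P200, blue genes (7) higher at P9 and grey genes (230) were not called by edgeR's quasi-likelihood test.

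After LPS the adult level went below that of pups for most members. The ELS-LPS mean was under the P9-ELS mean in 273 of 299, with a median ratio of 0.583 against 0.843 over the 7425 genes. Rgs2 had 140 to 205 CPM in P9-ELS mice, above all 5 ELS-LPS mice, and Sgk1 had 98.6 to 317, which overlaps the ELS-LPS mice.

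Early-life stress by itself gave no call among the members at P9. Between P9-ELS and P9-CTR mice 0 members passed, as did 0.0% of all tested genes, by edgeR's quasi-likelihood test. Its likelihood-ratio test and DESeq2, counted over the members only, gave 0 members as well. At an unadjusted p under 0.05 there were 13 members and 914 of all tested genes. The median log2 fold change was 0.01, members ran from -0.87 to 0.60, and the smallest adjusted p was 0.863 among members and 0.382 over all genes in edgeR's quasi-likelihood test.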

How the data were processed

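Counts of reads per gene were deposited as whole numbers for each of 50 mice. Per the submitters' processing notes the authors used bcl2fastq 2.20, cutadapt 2.10 and HTSeq 0.11.0 with GRCm39, and per the study's methods aligned reads with STAR and counted unique reads in exons. The annotation release and the strand setting are not given in the sources used here, so antisense members (Nr6a1os, Mypopos, Cep83os) and genes that overlap others are uncertain. Counts, not normalized by the authors, were used as deposited. Rows that name no gene were absent. CPM is the count over the mouse total.

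Tests used edgeR 4.0.16 in R 4.3.3 with TMM factors, a filter of at least 1 CPM in more than 2 mice, 1 fit of 6 group means over all 50 mice, glmQLFit and glmQLFTest, and Benjamini-Hochberg adjustment over 16696 genes. A call needed a log2 fold change beyond 1 in either direction with an adjusted p below 0.05, as in the study's supplementary methods. Its main methods give 0.1 in place of 1, which was run as an alternative. Contrasts that hold CTR P200 mice came from the same fit, but their p-values are not reported, because those mice chose the members. The members and gene lists were chosen with earlier results of these data known. Named genes are the 12 members with the lowest CTR ratio, the 10 with the highest CTR-PBS mean, up to 6 per list, the 6 with the least and the most left in ELS, the 6 highest and lowest with age, and those next to the limits, of which some are not reported here. Dck among the genes higher at P9, the 7-gene run and the genes read as uncertain are named besides, after their values were seen. DESeq2 1.42.0, other scalings, filters and samples served as alternatives. In simulated data with 200 genes changed by a log2 fold change of 2, the fit recovered 92.5% for LPS in ELS (16143 genes) and 96% for age in ELS (16144 genes). It also called 11 and 5 unchanged genes. Changes as small as the member medians, -1.12 after LPS and 0.50 with age, were not simulated, nor was any likeness within nests. No pair of mice was close enough to be a duplicate, with a highest correlation of 0.985.

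Sequences and gene structure came from GRCm39 with GENCODE M39 (Python 3.11.15, pandas 2.3.3, numpy 2.4.6, pysam 0.24.0, biopython 1.88, matplotlib 3.10.9), whose build is that of the notes. The age of the mice is confounded with myelin removal.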

Additional observations from a re-analysis of the deposited data

Results flagged for a closer look

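Values were examined in 152 groups of 4 to 10 mice, over 37 genes and the share of counts, and 25 groups held a mouse whose gap to the next was large for the range of its group (Dixon's criterion at 95%, which chance meets in about 1 in 20 groups). The 25 fall on 9 mice, and the groups are not independent because they share mice. The genes were named for extreme ratios, levels or changes with age among members chosen on CTR values. The rate of 1 in 20 therefore does not apply to them.

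CTR-PBS mouse 1.1, with few detected genes, accounts for 12 of them. It was the highest of its group in Cmc2 at 26.2 CPM, Duoxa1 at 22.9, Eif4ebp2 at 81.2, H1f4 at 32.2, Ift88 at 33.4, Klhl38 at 70.4, Mterf4 at 51.8, Pgap1 at 30.3, Rgs2 at 604, Zfp94 at 32.7 and Zkscan4 at 32.7 CPM, and the lowest in Plin2 at 0.901 CPM. Without it Rgs2 kept 10.8% after LPS in CTR mice, Zkscan4 14.0%, Klhl38 29.7% and Zfp94 24.5%, but Klhl38 and Zfp94 then fell under 10 CPM with 8.03 and 7.37. Cmc2, Ift88, Pgap1, Mterf4, Eif4ebp2, Klhl38 and Zfp94 are members only through mouse 1.1, so its high values there were part of the choice.

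Mouse 5.3 was high among the CTR-LPS mice, with 0.943% of counts in the members, 417 CPM of Sgk1, 171 of Maf and 8.27 of Zfp93. The CTR-LPS mouse of nest 15 was the highest in Plin2 at 39.5 CPM. Among ELS-PBS mice, mouse 1 of nest 17 was lowest in the share of counts at 1.79%, mouse 2 of that nest highest in Mtus1 at 679 CPM, mouse 2.1 highest in Sema6d at 27.4 and Sh2d3c at 79.1 CPM, and the mouse of nest 20 lowest in Zkscan4 at 5.64 CPM. Among ELS-LPS mice, the mouse of nest 11 was highest in Cdt1 at 10.7 and Klhl38 at 5.32 CPM, and mouse 4.2 in Kcnj2 at 6.22 CPM. None of the causes was tested.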

How the results depend on the processing

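The count of 158 members called lower after LPS in ELS mice lay between 143 and 208 under the other tests (the likelihood-ratio test and DESeq2, 166 and 164), scalings, filters and sample choices, 208 being the count with total counts as library sizes, and between 131 and 167 when 1 mouse was left out. The median log2 fold change lay between -1.33 and -1.08, and between -1.22 and -1.05 without 1 mouse. The 62 members called higher at P200 became 56 to 63, and 57 to 69 without 1 mouse, but 134 when the absolute log2 fold change had to exceed only 0.1; the count of 7 in the other direction stayed at 7 without 1 mouse, and the median of 0.50 ran from 0.49 to 0.53. No alternative gave a call among the members between P9-ELS and P9-CTR mice. The number of genes chosen went from 299 to 181 with a minimum of 20 CPM, to 418 with 5 CPM, to 218 (all of them members, 49 with a zinc finger symbol) on TMM-normalized CPM, and to 292 to 358 without 1 mouse. The 204 members without overlap in ELS became 173 on TMM-normalized CPM. Without 1 mouse they became 205 to 237, but leaving out a mouse cannot lower this count. The 209 that pass the rule in ELS became 168 on TMM-normalized CPM and 195 to 223 without 1 mouse. At P200, PBS and LPS mice of a shared nest did not deviate together. Over 10 such pairings the correlations of deviations ran from -0.09 to 0.12, and 2 were above 0.1. P9 nests were not examined in this way. In P9-CTR mice the members held 1.21% to 1.25% of counts in nest 51 and 1.40% and 1.48% in nest 58. Whether P9 mice of a shared nest are alike was not tested. With the nest as a replicate block 178 members were called lower after LPS. Counts summed per nest, an alternative chosen after seeing the data, gave 171. Of 1387 values of single named genes under an alternative, 1344 kept direction and side of the threshold, 19 lost a call, 12 gained one and 12 changed sign, all 12 in genes near 0 that were not called. After LPS in ELS, total counts gave -0.19 for Cmc2, -0.13 for Mmab and -0.01 for Pgap1, the block gave -0.09 for Cmc2 and 0.04 for Ift88, both DESeq2 settings gave 0.00 for Ift88, and no filter gave 0.02. With age, nest sums gave 0.04 for Asb2 and 0.06 for Fbxw4, and leaving out the 3 mice with few genes gave 0.06 for Fbxw4 and -0.05 for Ndst2. The causes were not tested. Genes near 10 CPM rest on few counts in the shallowest libraries, and a missing call there does not show that the level was equal.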
